A study of Ixodes ricinus with 9 samples.

Results

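The midgut transcriptome described here is that of the control ticks of an RNA interference study in Ixodes ricinus, the castor bean tick. Its members are the 3 GFP control midgut libraries of the 9 libraries in the count table, taken by their labels and by no measured value. Adult unfed females had been injected with double-stranded RNA for green fluorescent protein, a sequence foreign to the tick that serves as a negative control for silencing. They then fed through an artificial membrane on defibrinated bovine blood supplemented with ATP, glucose, B vitamin and gentamycin, in feeding units shared with males. Midguts were taken on feeding day 7 from females of comparable engorgement size, and the 9 control females were divided into 3 pools of 3 ticks, with 1 poly-A library per pool. The other 6 libraries, from ticks injected with double-stranded RNA against antigen p23 or a metalloprotease, were not used. All control ticks were injected and membrane-fed, so an uninjected, host-fed or unfed midgut was not part of the group. The study reports that few ticks of the GFP group detached alive, and unevenly. It names possible handling errors that could have affected the physiology of the ticks. The spread given below is that between pools, each of which averages 3 ticks. In bulk tissue, fewer cells of a type and less RNA per cell cannot be told apart.

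The tick midgut stores the blood meal for days to weeks and digests it slowly inside its epithelial cells. Haemoglobin and other blood proteins are taken up into acidic lysosomal compartments, where cysteine and aspartic peptidases cut them and exopeptidases release amino acids. Ticks do not have a complete haem synthesis pathway and use haem from the host, iron is stored in ferritin, and lipids leave the gut on large lipid transfer proteins, of which vitellogenin is the precursor of the egg yolk protein.

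The libraries held 4252622, 4681133 and 3306565 counts in pools 1, 2 and 3, and values below are given in that order. Levels are given as CPM, the counts of a gene scaled to a library total of 1000000, and a single count was worth 0.235, 0.214 and 0.302 CPM. Pool 2 stood apart from both others. The Pearson correlation of CPM across all genes was 0.947 between pools 1 and 3, 0.797 between pools 1 and 2 and 0.810 between pools 2 and 3, where the points share the genome and its annotation. The median absolute log2 ratio of CPM across 5993 genes that passed a filter on low counts was 0.36 between pools 1 and 3, 0.57 between pools 1 and 2 and 0.58 between pools 2 and 3. A chi-square of the counts over genes, per degree of freedom, ranged from 39.2 to 115 for the 3 pairs, so no pair differed by as little as counting noise. All 3 pools were kept, and results that rest on pool 2 are given with each pool's own value.

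Of the 28510 annotated genes, 6798 (23.8%) reached 1 CPM in every pool, and these are called detected. A further 16670 genes had 0 counts in all 3 pools. Reads of I. ricinus were counted on the genes of a related species, I. persulcatus, and the study reports that most reads did not map there. For any gene or family below, a low or 0 count and a loss of reads on that reference cannot be told apart. Pool 2 had counts in 10988 genes, pool 1 in 9473 and pool 3 in 9410. At the total of the shallowest library, the expected numbers were 10660, 9260 and 9410, so the higher number in pool 2 was not set by its depth alone. A total of 1411 genes averaged at least 100 CPM, 154 at least 1000 CPM and 12 at least 10000 CPM.

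A small number of genes held a large part of the counts. The genes that together held 50% of the counts numbered 112 in pool 1, 208 in pool 2 and 107 in pool 3, and 90% of the counts lay in 1681, 2196 and 1649 genes. The 10 genes with the highest mean CPM took 20.6%, 11.8% and 20.8% of the counts (17.7 ± 5.13%, SD, n = 3). On the length-scaled level (TPM, counts per base of coding length, scaled to a sum of 1000000 in each pool), the 10 highest genes took 18.8%, 12.1% and 17.2% of the total. Pool 2 therefore spread its counts over more genes than either other pool on both scales.

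**Figure D1:**
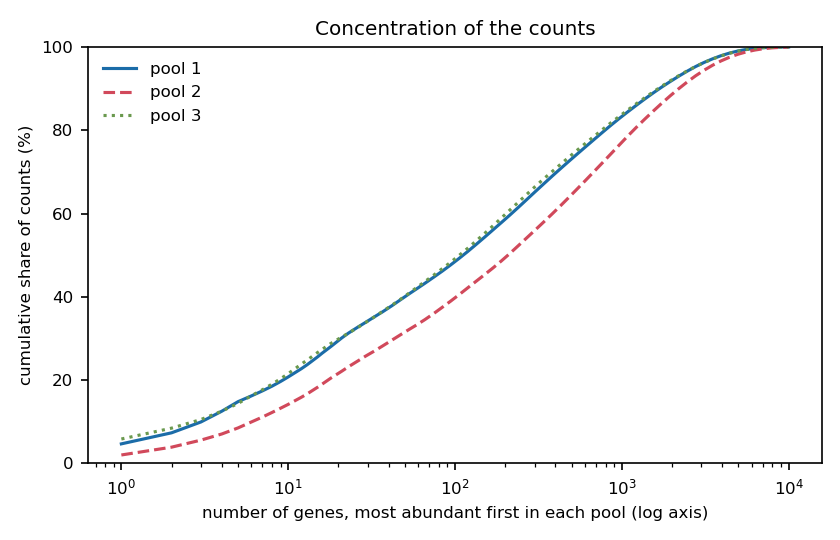
Cumulative percent of the counts (vertical axis) against the number of genes ranked by their own CPM in each pool (horizontal axis, logarithmic), 1 line per pool. The lines of pools 1 and 3 reach 50% at 112 and 107 genes and lie close together, and the line of pool 2 lies below them and reaches 50% at 208 genes.

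The best match of the most counted gene, HPB47_012779, was vitellogenin, on scaffold JABSTQ010011553.1, from 722518 to 772703. It held 199331, 94450 and 193624 counts, which is 46872, 20177 and 58557 CPM, and it was the most counted gene in each pool. Its level in pool 2 was under that of both other pools, and its coefficient of variation (CV, the SD over the mean of the 3 pools) was 47.0%. The gene with the next highest mean CPM, HPB47_020504, best matched apolipophorins, the carriers of lipid in arthropod haemolymph, and stood at 26058, 9009 and 26063 CPM. The same order of pools held for both, with the lowest value in pool 2. Both gene models are long, with coding lengths of 13227 and 9543 bases, and scaled to length they ranked 48 and 63 at 3378 ± 1626 and 2278 ± 1122 TPM (SD, n = 3).

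The rest of the 30 genes with the highest mean CPM held chitin and sterol proteins, serpins, actins, chaperones, metabolic enzymes and the protein synthesis machinery. The chitin deacetylase match HPB47_021411, of a family that removes acetyl groups from chitin, stood at 26534, 7209.6 and 18236 CPM. The gene HPB47_006008, whose match is the N-terminal domain of the cholesterol transporter NPC1, stood at 25807, 1709.8 and 14687 CPM. The serpin match HPB47_012019 stood at 10875, 14520.0 and 11813 CPM, and the actin match HPB47_025753, a cytoskeletal protein, at 13699.5, 7668 and 13468 CPM. The deacetylase and the NPC1 match were lowest in pool 2, while the serpin was highest there. The gene HPB47_010708, whose match is the 2-oxoglutarate dehydrogenase E1 component DHKTD1, an enzyme of lysine breakdown in mammals, held 11253, 10198 and 12275 CPM and varied by 9.24%. Polyadenylate-binding protein 1A, HPB47_004688, which coats the tails of mRNA, held 9697, 8047 and 9228 CPM.

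The 30 genes did not vary alike. In 13 of them the highest pool was under 1.5 times the lowest, in 11 it was at least 2 times the lowest, and in 5 at least 4 times. Pool 2 was the lowest of the 3 in 14 of the genes and the highest in 13. The 5 with the widest range were the NPC1 match HPB47_006008, HPB47_007320 without any match, glutathione S-transferase HPB47_010204, HSP90 HPB47_019585 and chitin deacetylase HPB47_021410. The 10 most counted genes of the 3 pools had 4 genes in common.

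**Figure D2:**
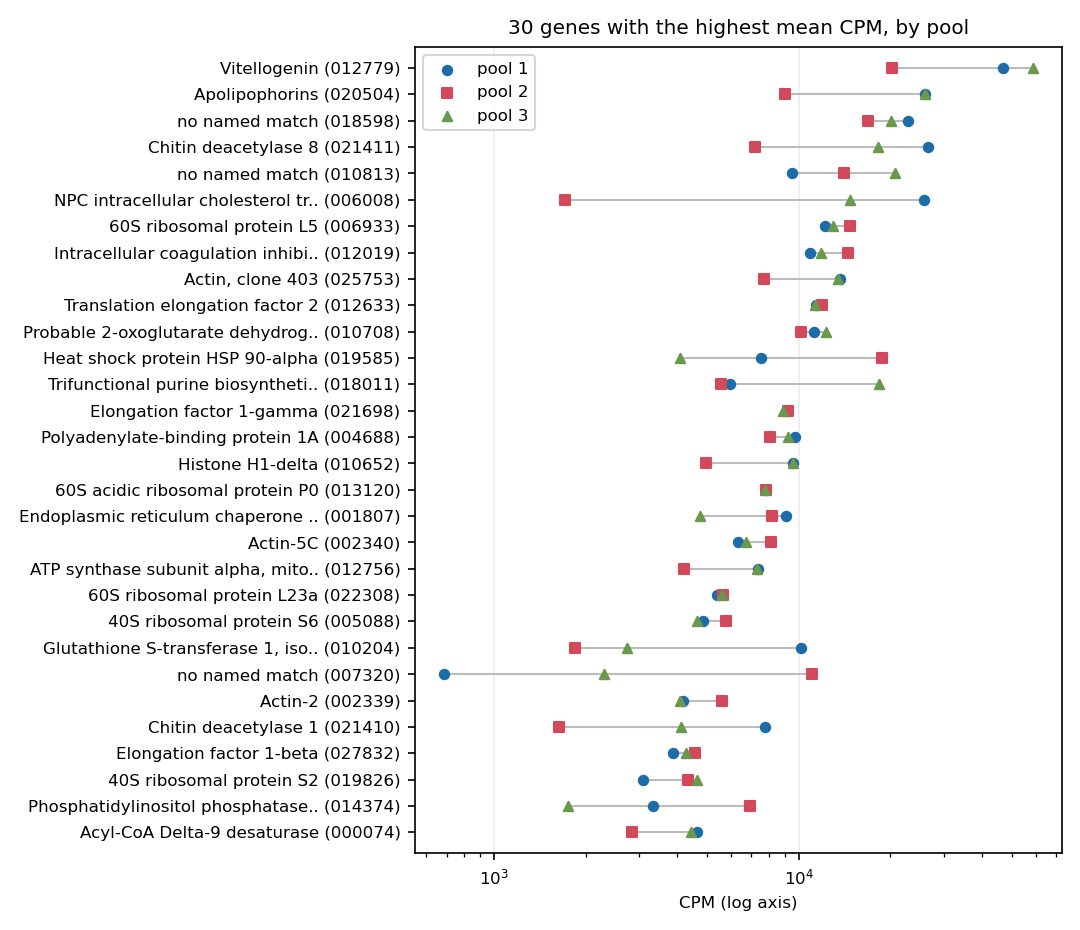
CPM of the 30 genes with the highest mean (horizontal axis, logarithmic), 1 line per gene from its lowest to its highest pool, with its best match and the digits of its identifier, and 1 point per pool. Vitellogenin leads in every pool, the points of ribosomal protein P0 and elongation factor 1-gamma fall together, and those of the NPC1 match and of the unmatched gene HPB47_007320 span the widest ranges.

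Scaled to coding length, the order of the genes changed, since short transcripts hold fewer counts for the same number of molecules. A total of 17 genes were among both the 30 highest in CPM and the 20 highest in TPM. The highest mean TPM belonged to HPB47_018598, a gene model of 660 bases on scaffold JABSTQ010007780.1, from 7220 to 15248, with no Swiss-Prot match and no Pfam domain. Its level was 36939, 26729 and 32764 TPM, and its CPM varied by 14.8% between pools. The NPC1 match HPB47_006008 followed at 40259.6, 2602 and 23104 TPM and stood above it in pool 1. The gap between their means, 32144 ± 5133 and 21989 ± 18853 TPM (SD, n = 3), was smaller than the SD of the NPC1 match. Next came the actin match HPB47_002340 at 15000.3, 18705 and 16044 TPM and the chitin deacetylase match HPB47_021411 at 24324, 6448 and 16857 TPM. Ribosomal protein L5, HPB47_006933, stood at 14560.4, 17136 and 15549 TPM and linker histone H1, HPB47_010652, which binds between nucleosomes, at 16981, 8592 and 17079.8 TPM. Between L5 and the deacetylase the mean TPM differed by far less than the spread of either, so their order is not given by these data. The nucleoside diphosphate kinase HPB47_023463, which balances nucleotide triphosphates, had few bases (459) and reached rank 14 at 8209.7, 6965 and 7433 TPM. The median coding length was 1168.5 bases among the 100 genes with the highest CPM and 673.5 among the 100 with the highest TPM, against 1248 among detected genes.

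Genes were grouped by function into 62 lists built from Swiss-Prot names and Pfam domains. Numbers of detected members given below stand beside 23.8% detected over all gene models and 47.3% over those with a Swiss-Prot match. Summed TPM was highest for cytosolic ribosomal proteins at 9.56% of the total, followed by actins and tubulins at 3.48%, translation factors at 3.03% and nuclear-encoded subunits of the respiratory chain and ATP synthase at 2.78%. Histones held 2.40%, chitin deacetylases 2.28%, NPC1-like proteins 2.27%, chaperones 2.27% and serpins 1.80%. Of the peptidase lists, the trypsin-like serine proteases held the most, at 0.265%.

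**Figure D3:**
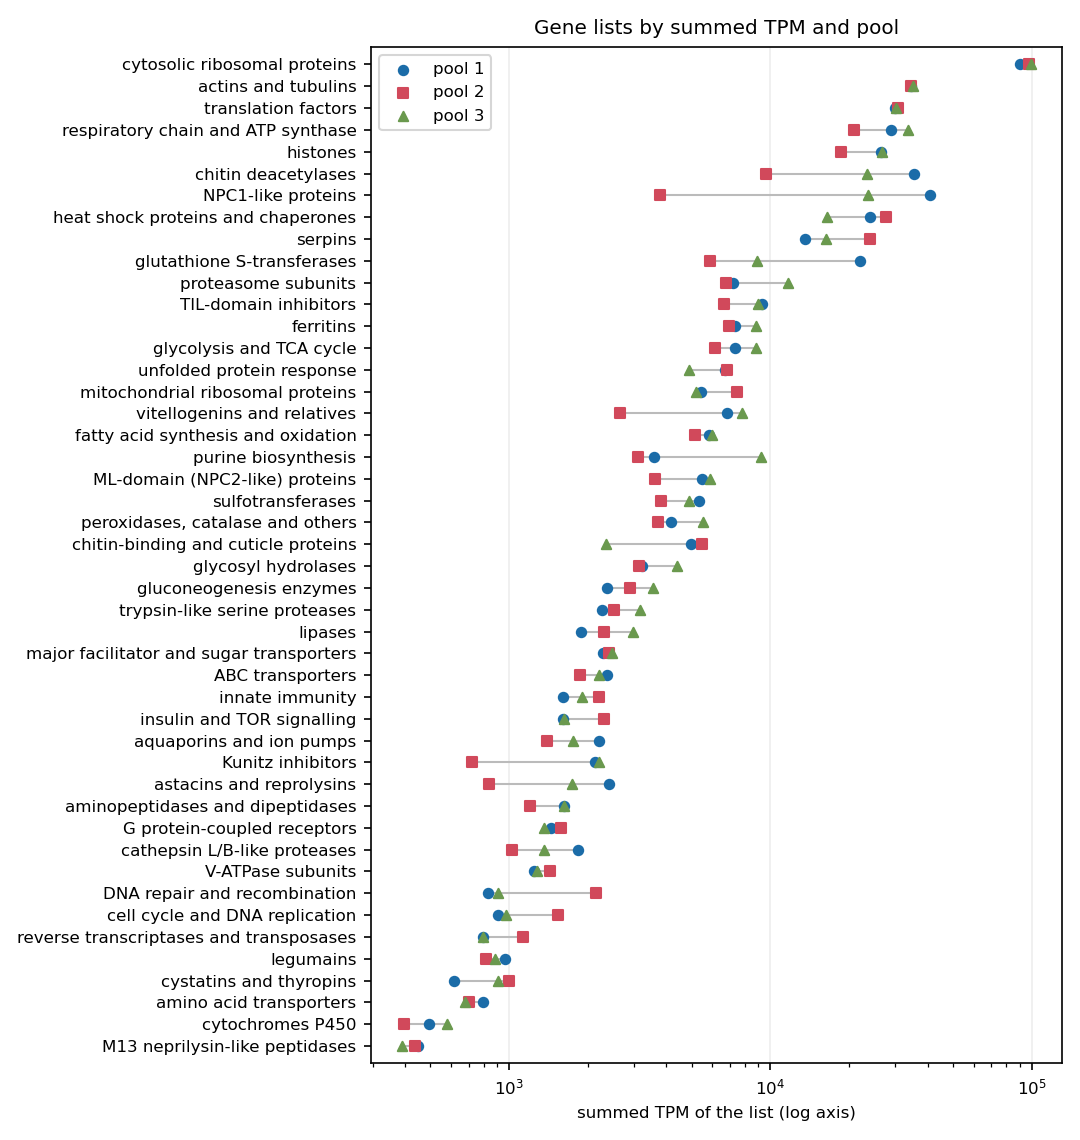
Summed TPM of most of the functional lists (horizontal axis, logarithmic), 1 line per list from its lowest to its highest pool, and 1 point per pool. Cytosolic ribosomal proteins lead at 9.56% of the total, their 3 points fall together, and the points of NPC1-like proteins and glutathione S-transferases lie apart.

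Protein synthesis was the most abundant group and among the steadiest. Of 73 cytosolic ribosomal protein genes, 50 (68.5%) were detected, and together they stood at 62468, 69921 and 67729 CPM. Their median CV was 12.1%, against 29.7% over the 5993 filtered genes. Ribosomal protein P0, HPB47_013120, part of the stalk that binds translation factors, stood at 7806, 7826 and 7731 CPM with a CV of 0.643%. Ribosomal protein L23a, HPB47_022308, stood at 5388, 5633 and 5598 CPM and S6, HPB47_005088, a target of S6 kinase, at 4849.9, 5773 and 4622 CPM. The 59 translation factor genes, 48 of them detected, summed to 39049.8, 40041 and 37831 CPM with a median CV of 12.7%. Elongation factor 2, HPB47_012633, which moves the ribosome along the mRNA, stood at 11409, 11944 and 11284 CPM. Elongation factor 1-gamma, HPB47_021698, held 9190.3, 9225 and 8858 CPM and a CV of 2.23%, and 1-beta, HPB47_027832, held 3859, 4566 and 4252 CPM. The mitochondrial ribosomal proteins varied more, at 3160.4, 4551 and 3039 CPM with a median CV of 25.0%, and were highest in pool 2.

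Elongation factor 1-alpha, which carries aminoacyl-tRNA to the ribosome and was the reference gene of the study's quantitative PCR, was low in these counts. The gene model HPB47_015871 stood at 123, 84.6 and 105 CPM and HPB47_011647 at 5.64, 4.91 and 3.02 CPM. On the length-scaled level, HPB47_015871 stood at 92.3 ± 18.1 TPM, beside 7427 ± 109.7 TPM for its partner subunit 1-gamma (SD, n = 3). The CV of HPB47_015871 was 18.4%. Reads of I. ricinus were counted on the genes of I. persulcatus, and how many reads of each gene were lost on that reference was not tested.

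The digestive peptidases were present at moderate levels, and the summed CPM of the legumains varied least of them between pools. Legumains, asparaginyl endopeptidases that take part in haemoglobin digestion in ticks, summed to 1519, 1379 and 1378 CPM, with 4 of 10 genes detected. That list holds a match to a GPI-anchor transamidase, an enzyme of the same peptidase family that attaches lipid anchors to proteins. The 8 genes whose best match is legumain, 3 of them detected, summed to 1506, 1363 and 1371 CPM. The leading legumain, HPB47_025223, stood at 1101, 835 and 962 CPM and HPB47_028388 at 395, 518 and 353 CPM. Cysteine peptidases of the papain family summed to 1679, 1012 and 1311 CPM, with 7 of 21 genes detected. Cathepsin L, HPB47_012847, held 51.6% of that sum and stood at 1014, 466 and 564 CPM, which was lowest in pool 2. Dipeptidyl peptidase 1, HPB47_017970, which removes dipeptides from the N-terminus, stood at 216, 147 and 98.9 CPM, and the match to cruzipain, HPB47_009340, a cathepsin L-like peptidase of trypanosomes, at 366, 310.4 and 489 CPM. The 10 genes whose best match is cathepsin B summed to only 19.5, 2.35 and 5.44 CPM, and none was detected in all pools.

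Aspartic peptidases were far lower than cysteine peptidases on the length-scaled level, at 80.1, 84.8 and 170.3 TPM against 1833, 1024 and 1361 TPM. Cathepsin D, HPB47_007140, a haemoglobin-cutting peptidase in ticks, stood at 66.3, 37.8 and 113 CPM, and HPB47_005210 at 13.4, 50.6 and 65.9 CPM. Serine carboxypeptidases, which release amino acids from the C-terminus, summed to 537, 384 and 383 CPM, with 5 of 27 genes detected and 13 at 0 in every pool. The leading member HPB47_006822, a match to CPVL, stood at 434, 144 and 243 CPM, and the lysosomal protective protein match HPB47_005579 at 73.6, 216 and 93.8 CPM. These members took opposite orders, with the former lowest and the latter highest in pool 2. Aminopeptidases and dipeptidases summed to 2083, 1572 and 2007 CPM and were led by a match to Xaa-Pro dipeptidase, HPB47_008091, at 1001, 653 and 824 CPM.

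Among peptidases that work at neutral pH, the trypsin-like serine proteases summed to 2358, 2948 and 3477 CPM, but only 14 of 143 genes were detected and 86 had no count. A match to serine protease 53, HPB47_002099, stood at 1337, 1015 and 1479 CPM and a match to chymotrypsin-C, HPB47_014190, at 641, 1431 and 1450.1 CPM. Pool 1 was lowest for the latter, and its level in pools 2 and 3 was close. The M13 neprilysin-like peptidases, a family greatly expanded in ticks, had 170 gene models, of which 9 were detected, and summed to 934, 901 and 806 CPM. Neprilysin-11, HPB47_023265, led them at 657, 356 and 522 CPM, while the neprilysin-21 match HPB47_012553 had 0, 803 and 2 counts. Astacins and reprolysins summed to 1845, 702 and 1394 CPM, of which one astacin-like gene, HPB47_024456, held 86.1% at 1663, 569.9 and 1154 CPM.

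Serpins led the peptidase inhibitors, and on the length-scaled level they stood above each list of peptidases. Serpins, which trap serine proteases, summed to 16198, 28954 and 20023 CPM (1.80% of TPM), with 19 of 71 genes detected. The serpin match HPB47_012019 alone held 56.6% of that sum. A leukocyte elastase inhibitor match, HPB47_027208, stood at 3047, 3259 and 5471 CPM and was highest in pool 3. Further matches to horseshoe crab intracellular coagulation inhibitors were highest in pool 2, namely HPB47_027203 at 882, 4266 and 689 CPM, HPB47_008072 at 599, 2742 and 1137 CPM and HPB47_012018 at 139.9, 2639 and 184 CPM. Similar genes of a family can share reads, and how reads mapping to several genes were handled is not given in the sources used here. The median CV of the serpins was 74.7%, against 29.7% over all filtered genes.

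The Kunitz inhibitors, a fold that blocks serine proteases, rested on one gene, the boophilin match HPB47_018472, at 1359.6, 429 and 1398 CPM, which is 78.0% of the list. Boophilin is known from the midgut of the cattle tick as an inhibitor of thrombin. The inhibitors with a TIL domain summed to 2588, 1932 and 2485 CPM and, being short, to 9282, 6646 and 8954 TPM. Their leading members HPB47_005017 and HPB47_005020, of 294 bases each, stood at 1854, 1265 and 663 CPM and at 681, 547 and 1745 CPM. The former was highest in pool 1 and the latter in pool 3. The cystatins and thyropins, inhibitors of cysteine peptidases, were lower at 388, 388 and 479.7 CPM, led by the thyroglobulin-domain gene HPB47_005635 at 295, 129 and 329 CPM.

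Among enzymes that cut sugars and fats, alpha-L-fucosidase HPB47_005520 led the list of glycosyl hydrolases at 833, 969 and 1672 CPM, and the list, with 32 of 105 genes detected, summed to 4598, 4728 and 6250.0 CPM. The match to hexosaminidase D, HPB47_025954, stood at 842, 1250.3 and 1075 CPM and beta-galactosidase, HPB47_020797, at 709, 327 and 1006 CPM. An alpha-amylase match, HPB47_012210, which digests starch and glycogen, is also a glycosyl hydrolase but is not a member of that list. It stood at 3699, 283 and 2052 CPM, lowest in pool 2, and was chosen after its values were seen. With the alpha-amylase matches added, the list summed to 8301, 5014 and 8304 CPM. Lipases summed to 2759.7, 3708 and 4644 CPM, with 27 of 83 genes detected. Their leading members varied in different directions. A pancreatic triacylglycerol lipase match, HPB47_001917, was highest in pool 3 at 797, 478 and 1631 CPM, as was the gastric lipase match HPB47_023503 at 235, 145 and 811 CPM, while pancreatic lipase-related protein 2, HPB47_002313, was highest in pool 2 at 270.4, 985 and 645 CPM. Group XV phospholipase A2, HPB47_010081, a lysosomal phospholipase, stood at 224, 449 and 174 CPM.

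The leading ferritin was abundant and even between pools. The ferritin match HPB47_026848, best matching a snail soma ferritin, stood at 2436, 2693 and 2779 CPM with a CV of 6.76%. A separate ferritin, HPB47_028185, stood at 1103, 752 and 1409.9 CPM with a CV of 30.2%, and the remaining ferritin gene model, HPB47_012968, had 0, 3 and 1 counts. Per length, the ferritins reached 7344, 6957 and 8772 TPM. The other genes of iron and haem handling were far lower on that scale, at 269, 364 and 231.1 TPM. They were led by cytoplasmic aconitase, HPB47_011204, whose relatives in vertebrates act as iron regulatory proteins, at 130.0, 256 and 189.6 CPM. Mitoferrin, HPB47_020345, which brings iron into mitochondria, stood at 68.9, 97.2 and 45.7 CPM, the iron transporter match Malvolio, HPB47_023182, at 60.4, 47.4 and 54.1 CPM and melanotransferrin, HPB47_002620, at 37.9, 75.2 and 39.9 CPM.

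Of the enzymes that make haem, only the last steps were represented among the Swiss-Prot matches. Coproporphyrinogen oxidase, HPB47_004893, stood at 26.6, 109.8 and 51.4 CPM and was highest in pool 2. Ferrochelatase, HPB47_010567, which inserts iron, stood at 8.23, 0.854 and 6.05 CPM and was lowest in pool 2. The protoporphyrinogen oxidase matches had 15, 4 and 2 counts at HPB47_001938 and 0 counts in each pool at HPB47_001939. No gene matched the names of the earlier enzymes, from aminolevulinate synthase to uroporphyrinogen decarboxylase, in the annotation used here.

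Some lipid and sterol genes differed widely between pools. NPC1-like proteins are named after a transporter that moves cholesterol out of lysosomes. They summed to 26697, 2781 and 15368 CPM, a range of 9.60 times. The N-terminal domain match HPB47_006008 held 93.8% of the sum, and whether its product moves cholesterol was not tested. That gene model is short, at 684 bases, and lies on scaffold JABSTQ010010904.1, from 201906 to 202589. A gene model of the same length and domain, HPB47_001419, took the opposite order at 190.2, 573 and 214 CPM. The long NPC1 models, HPB47_016215 and HPB47_011648, stood at 402, 132 and 220.5 CPM and at 184, 200.2 and 209 CPM. The NPC2 match HPB47_001248, a soluble sterol carrier that works with NPC1 in mammals, stood at 2294, 1554 and 2443 CPM and held nearly the whole list of ML-domain proteins. Microsomal triglyceride transfer protein, HPB47_010799, which loads lipid onto vitellogenin-type carriers, stood at 184, 109 and 213 CPM. A match to vitellogenin-6, HPB47_009282, stood at 35.3, 125 and 13.3 CPM and was highest in pool 2, where HPB47_012779 was lowest.

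Fatty acid synthesis and oxidation genes summed to 7299, 6971 and 7848 CPM, a range of only 1.13 times, and 38 of 180 were detected. The delta-9 desaturase HPB47_000074, which makes monounsaturated fatty acids, led them at 4620.0, 2828 and 4422 CPM. Fatty acid synthase, which builds palmitate, was represented by neighbouring gene models HPB47_018997 and HPB47_018998, at 94.1, 647 and 427 CPM and 107, 572 and 358 CPM. Both were lowest in pool 1. A match to an elongase of very long chain fatty acids, HPB47_028502, stood at 739.5, 936 and 1005 CPM, and carnitine palmitoyltransferase 1, HPB47_026554, which admits fatty acids to mitochondria for oxidation, at 208, 210.2 and 204 CPM with a CV of 1.65%.

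Chitin-modifying genes were also abundant. The chitin deacetylases summed to 39019, 11462 and 25796 CPM, with 8 of 12 genes detected, and were lowest in pool 2. After HPB47_021411, the members with the highest CPM were HPB47_021410 at 7754, 1635 and 4125 CPM, which is 73061 bases from it on the same scaffold, HPB47_012980 at 3477, 1638 and 2376 CPM and HPB47_012979 at 599, 511 and 338 CPM. A further chitin deacetylase 8 match, HPB47_004770, stood at 407, 70.9 and 374 CPM. Chitin is the scaffold of the peritrophic matrix, the layer that separates the blood meal from the epithelium. The list of peritrophic, chitin-binding and cuticle proteins was lower on the length-scaled level, at 4979, 5457 and 2357 TPM against 35328, 9596 and 23335 TPM for the deacetylases. Its members HPB47_004765, with a chitin-binding domain and no Swiss-Prot match, and HPB47_025107, a match to cuticle protein 10.9, stood at 1026, 594 and 601 CPM and at 777, 949 and 261 CPM. Chitin synthase, HPB47_011817, stood at 331, 276 and 208 CPM.

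Glutathione S-transferases, which conjugate reactive compounds to glutathione, summed to 15997, 4205 and 6183 CPM, a range of 3.80 times, with pool 1 the highest. Of the 43 genes, 13 were detected (30.2%), against 23.8% of all gene models and 47.3% of those with a Swiss-Prot match. The gene HPB47_010204 stood at 10168, 1841 and 2727 CPM, and HPB47_024134 at 2499, 765 and 1222 CPM and HPB47_024139 at 2037, 735 and 895 CPM followed the same order of pools. The 230 cytochrome P450 gene models, oxidases of foreign and own compounds, had 21 detected (9.13%) and 148 without a count, and summed to 662, 516 and 802 CPM. Cytochrome P450 3A8, HPB47_025180, stood at 266, 141 and 286 CPM. Sulfotransferases, which attach sulfate to small molecules, had 33 of 189 genes detected (17.5%) and summed to 3931, 3275 and 3729.6 CPM. Their sum varied by 1.20 times between pools although single members varied more, such as HPB47_019895 at 1288, 365 and 479.7 CPM and HPB47_011747 at 404, 965 and 1062 CPM.

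The antioxidant enzymes summed to 3177, 2869 and 4272 CPM. Mitochondrial peroxiredoxin, HPB47_024741, which reduces hydrogen peroxide, stood at 1257, 1134 and 1854 CPM, and catalase, HPB47_025865, at 213, 289 and 508 CPM. Superoxide dismutase, HPB47_010068, stood at 552, 189.7 and 593 CPM and was lowest in pool 2. The phospholipid hydroperoxide glutathione peroxidase HPB47_024768 varied little, at 231.6, 252 and 229 CPM.

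The respiratory chain and the list of glycolysis and the tricarboxylic acid cycle were lowest in pool 2 and highest in pool 3. The respiratory chain and ATP synthase subunits summed to 21859.9, 14819 and 23662 CPM, led by ATP synthase alpha, HPB47_012756, at 7374, 4192 and 7276 CPM. Glycolysis and the tricarboxylic acid cycle summed to 14559, 12980.4 and 16651 CPM, of which the DHKTD1 match HPB47_010708 held 76.6%. Without that gene, which in mammals serves lysine breakdown, the sum was 3307, 2783 and 4376 CPM. Cytoplasmic malate dehydrogenase, HPB47_004804, stood at 841, 605 and 1076 CPM and glyceraldehyde-3-phosphate dehydrogenase, HPB47_005052, at 542, 444 and 874 CPM. Gluconeogenesis, the making of glucose from amino acids and other precursors, summed to 4540.0, 5268 and 6742 CPM, which was lowest in pool 1, and was led by phosphoenolpyruvate carboxykinase, HPB47_005193, its first committed enzyme, at 2733, 2412 and 3800.0 CPM. Glucose-6-phosphatase, HPB47_006720, its last, stood at 1330.0, 2458 and 2202 CPM, and pyruvate carboxylase, HPB47_025355, at 89.6, 59.8 and 270.4 CPM.

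The purine synthesis enzymes and the proteasome subunits were highest in pool 3. The trifunctional adenosine-3 enzyme HPB47_018011, which carries out several steps of purine synthesis, stood at 5930.5, 5549 and 18402 CPM and held 87.1% of the purine list. The first enzyme of that pathway, amidophosphoribosyltransferase, HPB47_023938, stood at 695, 582 and 1001 CPM, and GMP synthetase, HPB47_015267, at 559.7, 402 and 563 CPM, so the gap of the trifunctional gene was not matched in size by the other enzymes. The proteasome subunits, of which 32 of 36 genes were detected, summed to 5536, 5404 and 8961 CPM, and subunit alpha type-4, HPB47_023744, stood at 895, 739 and 1457 CPM.

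Among the abundant chaperones, HSP90 had a wide range between pools. HSP90, HPB47_019585, which folds kinases and receptors, stood at 7516, 18749.7 and 4068 CPM, highest in pool 2 and lowest in pool 3. The endoplasmic reticulum chaperone BiP, HPB47_001807, stood at 9091, 8171 and 4753 CPM, and mitochondrial HSP60, HPB47_010174, at 4022, 3131 and 2812 CPM. Protein disulfide isomerase, HPB47_001430, which forms disulfide bonds in secreted proteins, stood at 2750.3, 3154 and 3877 CPM. X-box-binding protein 1, HPB47_006746, the transcription factor of the unfolded protein response, stood at 2092, 3039.6 and 2709.8 CPM, while hypoxia up-regulated protein 1, HPB47_016553, was low at 51.5, 48.1 and 29.6 CPM. The 100 genes of the chaperone list, 55 of them detected, summed to 37475, 49103 and 26156 CPM with a median CV of 28.4%, near that of all filtered genes.

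Among transporters, the families differed in how even their sums were between pools. The 205 major facilitator and sugar transporters summed to 3642, 3744 and 3789 CPM, a range of 1.04 times, and 66 were detected. Their member with the most counts was a match to monocarboxylate transporter 12, HPB47_026720, at 504, 425 and 326 CPM. It was followed by HPB47_017384, without a Swiss-Prot match, at 306, 197 and 568 CPM and by HPB47_026722, another match to monocarboxylate transporter 12, at 269, 291 and 233.2 CPM. ABC transporters summed to 4239.5, 3557 and 4076 CPM, a range of 1.19 times, and were led by a match to the lysosomal cobalamin transporter ABCD4, HPB47_012449, at 1553, 1337 and 1751 CPM. The proton pump that acidifies lysosomes, the V-ATPase, had 13 of 20 subunit genes detected at 892, 1016 and 863 CPM in all, and its subunit B, HPB47_007644, stood at 351, 431 and 337 CPM. Aquaporins and ion pumps summed to 1869, 1267 and 1555 CPM, a range of 1.47 times. Aquaporin match HPB47_000015, of a family of water channels, stood at 123, 101 and 109 CPM, and the beta subunit of the sodium pump, HPB47_006783, at 1089, 700.0 and 865 CPM.

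In insulin and TOR signalling, 24 of 30 genes were detected. FOXO, HPB47_021280, the transcription factor that insulin signalling restrains, stood at 1180.2, 1709.6 and 995 CPM, and the kinase AKT, HPB47_026557, at 494, 573 and 494 CPM. Both were highest in pool 2, with CVs of 28.6% and 8.70%. The list of G protein-coupled receptors was led by frizzled-4, HPB47_011896, a Wnt receptor, at 1144, 809 and 1107 CPM. That list also holds HPB47_006151, whose best match is a ubiquitin-conjugating enzyme, at 667, 805 and 643 CPM. The linker histone H1, HPB47_010652, stood at 9596, 4977 and 9572 CPM, histone H3.3, HPB47_026394, at 1808, 1559 and 1918 CPM and histone H2AX, HPB47_015081, at 1476, 1842 and 1396 CPM. Only 5 of 151 histone gene models were detected in the poly-A libraries, and 138 had 0 counts.

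Immune genes were led by a lectin. The techylectin-5B match HPB47_000792, a fibrinogen-domain lectin known from the horseshoe crab, stood at 660.1, 513 and 1469 CPM and was highest in pool 3. A peptidoglycan recognition protein, HPB47_012122, which binds bacterial walls, stood at 155, 359.5 and 57.5 CPM, and the toll-like receptor match HPB47_004501 at 131, 337 and 77.7 CPM. Both were highest in pool 2. The alpha-2-macroglobulin family, which traps proteases, summed to 165, 790.0 and 149 CPM. Its members HPB47_027039 and HPB47_027040 stood at 33.4, 346 and 4.23 CPM and 17.4, 246 and 4.23 CPM, while HPB47_006392 was even at 98.8, 144 and 111 CPM.

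The RNA interference genes, the machinery by which injected double-stranded RNA acts, were expressed in these injected ticks. Argonaute-1, HPB47_001158, stood at 141, 484 and 181 CPM, Dicer, HPB47_008640, at 147, 170.3 and 144 CPM and argonaute-2, HPB47_016419, at 104, 48.3 and 44.5 CPM. Piwi-like protein 1, HPB47_015530, of a branch that silences mobile elements in animals, stood at 281, 133 and 159.7 CPM. An RNA-dependent RNA polymerase match, HPB47_023157, an enzyme that amplifies small RNAs in worms and plants, had 1, 433 and 0 counts and was chosen after its values were seen. Of 766 gene models of reverse transcriptases and transposases, 29 were detected and 681 had no count.

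The tissue label was checked against marker lists. The midgut digestive markers, a list put together after levels had been seen, summed to 7362, 6317 and 7447 CPM, with 21 of 65 genes detected. The ferritins on that list supplied 3539, 3446 and 4189 CPM of the sum. Whether the markers are confined to digestive cells was not tested. Ferritin, legumain and cathepsin L were among the genes with the most counts of the list in every pool, cathepsin D was present at a lower level, and cathepsin B was close to 0. Muscle surrounds the gut, and its markers summed to 2826, 2126 and 2316 CPM with 10 of 23 genes detected. The muscle myosin heavy chain HPB47_019820 held 67.5% of that at 1983, 1419.7 and 1484 CPM, paramyosin, HPB47_008412, stood at 308, 225 and 292 CPM, and the match to troponin I was at 0, 0.427 and 0 CPM. Nerve markers summed to 783, 764 and 742 CPM, of which ELAV-like protein 1, HPB47_021745, which also acts outside nerve, held 86.2%. The choline acetyltransferase matches were at 0, 0.214 and 0 CPM, and synapsin was at 4.23, 9.83 and 14.5 CPM.

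Markers of haemocytes, ovary and salivary gland were low. The haemocyte list summed to 48.4, 84.2 and 68.3 CPM and its hemocytin match had no count. In the ovary list, bicaudal D, HPB47_020141, stood at 74.8, 72.4 and 34.2 CPM and the nanos matches were at 0.941, 0 and 0 CPM. The salivary gland list, 7 matches to salivary cystatins, summed to 34.6, 224 and 99.5 CPM and was highest in pool 2. Its members HPB47_015991 and HPB47_018502 stood at 29.2, 130.3 and 96.2 CPM and at 5.41, 93.1 and 3.33 CPM, and the other members were at 0 or close to it. The 6 tick lipocalin models, a family of the saliva, summed to 0, 1.50 and 0 CPM. The cuticle and trachea list, which shares genes with the cuticle list above, summed to 2646, 2229 and 1249 CPM and was lowest in pool 3. Of the 2 salivary members with at least 20 CPM in some pool, only HPB47_018502 was at least 4 times as high in pool 2 as in both others. HPB47_015991, with 69.1% of the list's counts, was higher in both pools 2 and 3 than in pool 1. What part salivary tissue had in the results of pool 2 was not tested.

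Several of the most abundant gene models had no annotation. Genes with neither a Swiss-Prot match nor a Pfam domain made up 13704 of the 28510 models, of which 1092 (7.97%) were detected, and they held 10.3%, 12.9% and 11.1% of the counts. Genes with a Swiss-Prot match numbered 10802, of which 5104 (47.3%) were detected, and held 83.8 ± 1.52% of the counts (SD, n = 3). After HPB47_018598, the unmatched genes with the highest CPM were HPB47_010813 at 9538, 14119 and 20732 CPM and HPB47_007320 at 688, 11086 and 2299 CPM. The pools of the former were ordered 1, 2, 3 from low to high, and the latter was highest in pool 2. On one scaffold, JABSTQ010011242.1, lay 3 unmatched genes among the 50 with the highest CPM. These were HPB47_009177 at 3037, 1149 and 3422 CPM, HPB47_009182 at 3812, 3145 and 2903 CPM and HPB47_009184 at 1484, 3882 and 2168 CPM, and all had been singled out with these values in view. The first was lowest and the last highest in pool 2. Only HPB47_009182 and HPB47_009184, 32801 bases apart, were near neighbours, and they did not share an order of pools. The gene HPB47_024124, a model of 210 bases with a zinc knuckle domain, reached 7281, 9176 and 6992 TPM.

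Some other abundant genes lay near each other on a scaffold. Among the 100 genes with the highest CPM, 7 pairs were within 3 gene models of each other. Their distances ran from 250 to 173868 bases. How many such pairs any 100 genes would hold was not computed. The actin matches HPB47_002339 and HPB47_002340 were 250 bases apart and stood at 4173, 5593 and 4081 CPM and 6326, 8085 and 6710.0 CPM, both highest in pool 2. The innexin 2 matches HPB47_013269 and HPB47_013271, which form gap junctions, stood at 1082, 1386 and 1798 CPM and 1754, 1580.0 and 2879 CPM and were both highest in pool 3. This innexin pair, 173868 bases apart, was chosen after its values were seen. Genes with similar sequence may share reads, and close neighbours such as the actin pair may be parts of one gene.

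The spread between pools was larger than counting error for most genes. Over the 5993 filtered genes, the median CV was 29.7% (quartiles 18.0% and 46.3%), beside a median of 8.79% from counting alone. The median CV was 17.6% without pool 2, 28.2% without pool 1 and 27.6% without pool 3. The CV was at or under its counting value in 607 genes (10.1%), under 10% in 548 (9.14%) and over 100% in 157 (2.62%). It fell slowly with level, from a median of 32.3% in genes of 1 to 10 CPM to 29.9%, 27.6% and 25.0% in genes of 10 to 100, 100 to 1000 and above 1000 CPM, while the counting value fell from 19.7% to 9.09%, 3.50% and 1.26%. The common biological coefficient of variation estimated by edgeR, the spread beyond counting error, was 0.398. It was 0.281 without pool 2, 0.431 without pool 1 and 0.432 without pool 3. Each of these leaves 2 pools, and a group of 3 is too small for a formal test of an outlying pool.

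**Figure D4:**
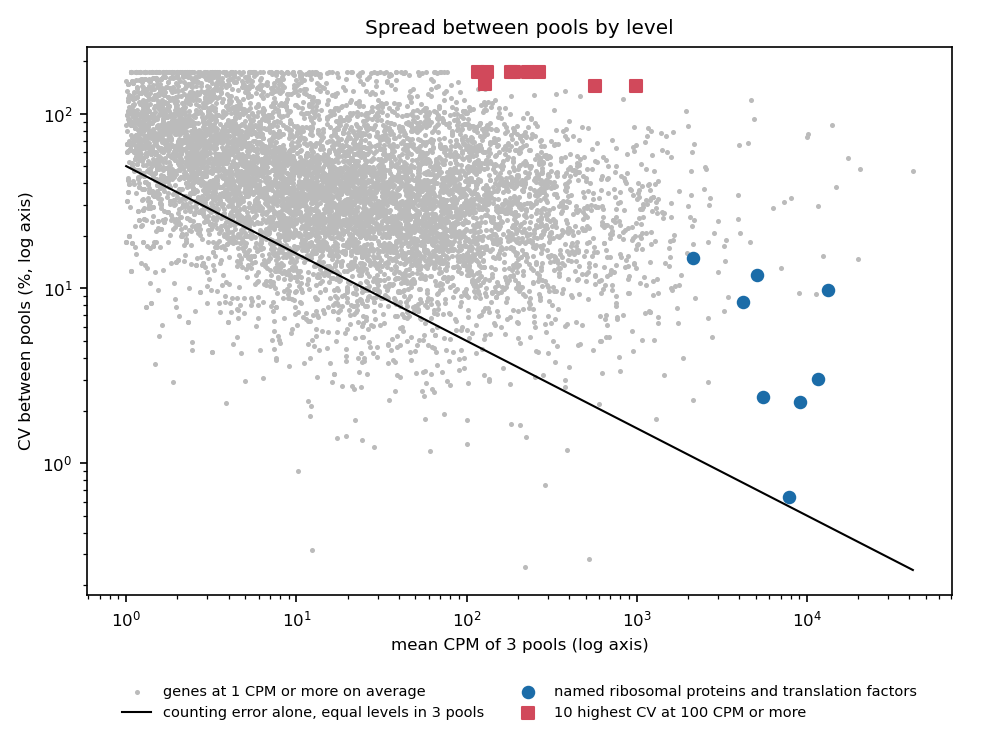
CV of CPM over the 3 pools in percent (vertical axis, logarithmic) against mean CPM (horizontal axis, logarithmic), 1 grey point per gene at 1 CPM or more on average, with a line at the CV that counting alone gives. Blue points are the named ribosomal proteins and translation factors, which lie low at high levels, and red squares are the 10 genes with the highest CV at 100 CPM or more.

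Among the 1411 genes with a mean of at least 100 CPM, the 10 steadiest had CVs from 0.254% to 1.80%. They included the O-GlcNAc transferase match HPB47_005971 at 219.9, 219 and 219 CPM, an enzyme that attaches sugar to intracellular proteins, and HPB47_021474, which holds a tropomyosin domain, at 522, 525 and 524 CPM. The chitinase-3-like match HPB47_003950 stood at 288, 285 and 289.7 CPM, and the scaffold subunit of protein phosphatase 2A, HPB47_018055, at 180.1, 183 and 186 CPM. Protein turnover and vesicle genes were also present, with the ubiquitin-conjugating enzyme E2 G2, HPB47_021295, at 1274, 1316 and 1278 CPM and epsin-2, HPB47_002129, at 222, 228 and 223 CPM. With 3 pools, a small CV in some of 1411 genes is a ranking and no evidence that a gene is constant.

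The 10 genes with the highest CV at that level were all highest in pool 2. They included 2 gene models with counts in pool 2 only, HPB47_021641 with 0, 3718 and 0 counts and HPB47_011447 with 0, 3211 and 0 counts, both without a match. The LDL receptor match HPB47_000738, of a family that takes up lipoproteins, had 2, 2549 and 0 counts. The others with a match were the serpin HPB47_012018 and the alpha-2-macroglobulin HPB47_027039. Below 100 CPM, the tubulin alpha match HPB47_023255 had 0, 613 and 0 counts. The 5 genes with the most counts in 1 library and 0 in both others all had their counts in pool 2. A count of 0 allows up to 3 counts, which is 0.705 CPM in pool 1 and 0.907 CPM in pool 3, whereas HPB47_021641 stood at 794 CPM in pool 2.

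The same pattern was counted over all genes. A gene was called high in a pool where its CPM was at least 4 times that of both other pools, among 4310 genes with at least 20 CPM in some pool. Pool 2 was high in 300 of them (6.96%), pool 1 in 11 (0.255%) and pool 3 in 15 (0.348%). A gene was called low where both other pools were at least 4 times its CPM, which held in 22 genes (0.51%) for pool 2, 14 (0.325%) for pool 1 and 9 (0.209%) for pool 3. The 300 genes held 5.54% of the counts of pool 2, at a summed 55357 CPM, against 5703 and 7129 CPM in pools 1 and 3. Of the 300, 71 had no more than 3 counts in each other pool. A Swiss-Prot match was present in 158 of the 300 (52.7%), against 78.0% of the 4310, and 106 had neither a match nor a domain. This was not particular to pool 2. A match was present in 54.5% of the genes high in pool 1 and 53.3% of those high in pool 3. In the genes low in pools 1, 2 and 3 it was present in 35.7%, 59.1% and 44.4%. These shares describe genes chosen by the same values and carry no test.

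**Figure D5:**
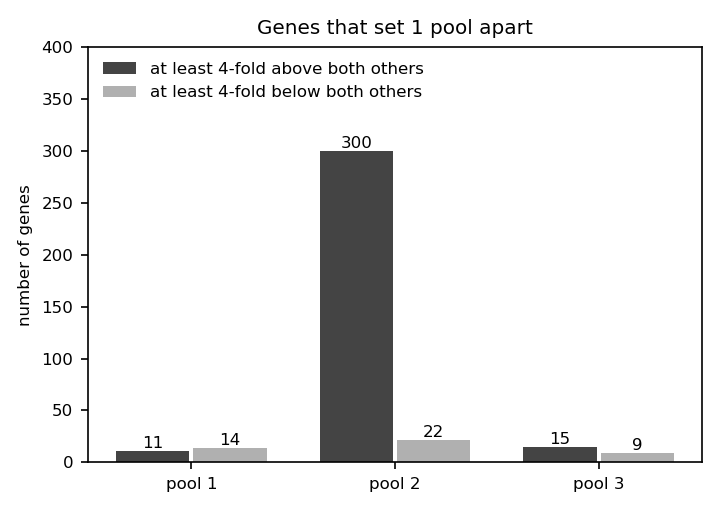
Number of genes called high or low in each pool (vertical axis, dark bars for high and light bars for low), for pools 1, 2 and 3 (horizontal axis), among 4310 genes with at least 20 CPM in some pool. Pool 2 has 300 genes at 4 times both others or more, beside 11 in pool 1 and 15 in pool 3.

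The genes high in pool 2 were 6.96% of the 4310 genes, and their share differed between lists. Members with at least 20 CPM in some pool were counted. High in pool 2 were 8 of 24 DNA repair and recombination genes, 5 of 16 serpins, 2 of 4 alpha-2-macroglobulin genes and 2 of 5 histones. So were 4 of 16 genes on the G protein-coupled receptor list and 3 of 11 trypsin-like proteases. The genes high in pool 2 also included 3 of 13 aquaporin and ion pump genes and 2 of 10 actins and tubulins. None of 47 cytosolic ribosomal proteins, 36 translation factors, 24 proteasome subunits or 14 midgut digestive markers was among the genes high in pool 2. Beside a share of 6.96%, lists of 14 or 24 members are too small for a 0 to set them apart. The 0 of the longer lists was not tested either, and other lists shared it. Also at 0 were 40 chaperones, 30 mitochondrial ribosomal proteins, 26 respiratory chain and ATP synthase genes and 16 cell cycle and DNA replication genes. The DNA repair, alpha-2-macroglobulin, aquaporin and midgut lists were put together after levels had been seen. Their counts are therefore no independent evidence. The lists hold few genes each and were not tested.

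In DNA repair, the list summed to 1287, 3669.8 and 1430.5 CPM. RAD50, HPB47_021258, which bridges broken DNA ends, stood at 257, 716 and 400.1 CPM. The RecQ-type helicases Q5, HPB47_022490, and Q1, HPB47_008227, which unwind DNA during repair, stood at 118, 402 and 124 CPM and 50.6, 279.6 and 48.4 CPM. The XPC match HPB47_002950, a sensor of damaged bases, stood at 92.6, 267 and 96.5 CPM. The kinase CDK2, HPB47_003354, which drives DNA replication, stood at 24.5, 202 and 32.4 CPM. The ecdysone-response receptor E75, HPB47_019054, stood at 68.9, 335 and 76.5 CPM. Both genes were picked with these values in view. The list of cell cycle and DNA replication genes summed to 743, 1258 and 775 CPM. None of its 16 members with at least 20 CPM in some pool was high in pool 2. The replication-type histone matches H3.1, HPB47_000499, also chosen after its values were seen, and H2B, HPB47_012752, had 0, 540 and 0 and 4, 596 and 0 counts. Inositol-3-phosphate synthase, HPB47_008755, chosen in the same way, stood at 123, 716 and 134 CPM.

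The 22 genes low in pool 2 included the NPC1 match HPB47_006008, the alpha-amylase HPB47_012210 and the chitin deacetylase HPB47_004770, with the values above. Also low there was the unmatched HPB47_005398 at 2937, 373 and 1566 CPM, chosen after its values were seen. Together the 22 held 36733, 2827 and 22192 CPM, most of it from the NPC1 match.

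Pools 1 and 3 had fewer such genes, and the examples were chosen after their values were seen. High in pool 1 were the unmatched HPB47_003250 at 832, 116 and 53.8 CPM and HPB47_011756 at 610.0, 41.2 and 92.2 CPM, and hemicentin-2, HPB47_026032, an extracellular matrix protein, at 174, 6.62 and 3.93 CPM. Fatty acid synthase HPB47_018997 and glycine N-methyltransferase, HPB47_012796, which uses up methyl groups, at 24.2, 102 and 236 CPM, were low in pool 1. Gamma-butyrobetaine dioxygenase, HPB47_022963, the last enzyme of carnitine synthesis, was high in pool 3 at 82.3, 107 and 486 CPM. So were the neighbouring sulfotransferases HPB47_008141 and HPB47_008142, at 9.41, 18.4 and 126 CPM and 2.12, 24.1 and 159 CPM, and the legumain HPB47_028387 at 5.88, 9.19 and 52.0 CPM. A match to heat shock protein 68, HPB47_010377, was low in pool 3 at 343, 90.1 and 5.14 CPM, while another, HPB47_024649, was high in pool 1 at 49.1, 7.26 and 0 CPM. Cuticle protein 16.8, HPB47_025106, was low in pool 3 at 207, 74.8 and 13.3 CPM, as was the receptor match Mth2, HPB47_021586, at 59.0, 132 and 13.9 CPM.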

How the data were processed

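RNA-seq of poly-A RNA was done on midguts of I. ricinus females. The authors cleaned the reads, aligned them to the I. persulcatus genome (assembly BIME_Iper_1.3) and counted them per annotated gene, with Bowtie2 2.5.3 and featureCounts per the submitters' processing notes. For each of 28510 genes the deposited table holds raw counts, not normalized. Settings for strand and multi-mapping reads: not given in the sources used here. Similar, overlapping or antisense genes may therefore share reads. Only the 3 GFP control columns of 9 were used.

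CPM was computed from library totals and TPM from the gene lengths in the table. Of these lengths 97.9% are multiples of 3, so they are coding lengths without untranslated regions, and TPM does not account for those. A gene was detected at 1 CPM or more in each pool. The common biological coefficient of variation came from edgeR 4.0.16 in R 4.3.3 (TMM, filterByExpr, 1 group), and CVs are of CPM over 3 pools, for 5993 genes that passed filterByExpr. The computations of dispersion, CV and pool calls were tested on simulated data. Alternatives were DESeq2 1.42.0 size factors and dispersions, no scaling, other filters and each pool left out. There was 1 group, so no test between groups was made and no p-value is given. Replicates are pools of separate ticks.

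Names are best Swiss-Prot matches or Pfam domains in the table, from many species, and are no proof of function. The members and the 62 gene lists were chosen with earlier results of these data known. Of the lists, 11 were trimmed after their members were seen and 11 added after levels were seen, and lists overlap. Named are the 30 genes with the highest mean CPM, the 20 with the highest mean TPM, up to 4 members with the highest CPM in each list, the 10 highest and 10 lowest CVs at 100 CPM or more, the 5 with the most counts in 1 library and 0 in the others, and elongation factor 1-alpha. Other names are stated as chosen after their values were seen. Genes that a pool was 4-fold above or below, counted among genes at 20 CPM or more, were defined after seeing the data. Python 3.11.15 with pandas 2.3.3 and matplotlib 3.10.9 was used.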

Additional observations from a re-analysis of the deposited data

How the results depend on the processing

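The number of detected genes (6798) and the share of the 10 most counted genes stayed near their values under every alternative run. Leaving out each pool gave 6923 to 7192 detected genes and a share of 16.4% to 20.8%. The common biological coefficient of variation (0.398) was 0.399 with DESeq2 size factors, 0.424 with no scaling beyond library totals, 0.598 with no filter on low counts and 0.264 as the DESeq2 gene-wise estimate, and ranged from 0.281 to 0.432 over the pools left out, lowest without pool 2. The median CV (29.7%) was 28.6% on TMM-scaled CPM, 28.8% with DESeq2 size factors, 31.6% over genes at 1 CPM or more in every pool, 29.6% over genes at 10 counts or more and 55.4% with no filter, and ranged from 17.6% to 28.2% over the pools left out, again lowest without pool 2. Of 265 named genes, the mean CPM moved by more than its SD in 2 on TMM-scaled CPM and in 0 with DESeq2 size factors, and of 62 list sums 0 did so on TMM-scaled CPM and 50 without their member with the most counts. A mean over the other pools is always within that SD, so leaving out a pool was read as a fold, chosen after seeing the data. The mean of 6 list sums moved by over 1.5 times. Without pool 1, glutathione S-transferases went from 8795 to 5194 CPM and NPC1-like proteins from 14949 to 9074 CPM. Without pool 2, the alpha-2-macroglobulin family went from 368 to 157 CPM, salivary gland markers from 119 to 67.0 CPM and DNA repair from 2129 to 1359 CPM. Without pool 3, purine synthesis went from 11349 to 6967 CPM. The counts of genes high in 1 pool depend on the threshold, in alternatives chosen after seeing the data. For pool 2 the 300 genes became 145 at 8-fold, 111 at 100 CPM or more and 210 on TMM-scaled CPM. For pool 1 the 11 became 2, 4 and 12, and for pool 3 the 15 became 6, 4 and 20. Pool 2 had the most such genes under each. No paired analysis was possible because only 1 group was used. Depth limits genes of few counts, since 1 count is worth 0.214 to 0.302 CPM.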
